A study of Mus musculus with 16 samples.

Results

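The conjugation enzymes described here are the UDP-glucuronosyltransferases (UGT), the sulfotransferases (SULT) and the glutathione transferases (GST) of mouse liver and liver tumours. They were the genes whose symbol starts with Ugt1 to Ugt3, Sult1 to Sult6 or Gst with a class letter and a number, and whose normalised count reached 10 in at least 2 of the 16 libraries. The symbol pattern matched 63 of the 47069 genes in the table, and 54 of these passed the level threshold: 18 UGT, 16 SULT and 20 GST genes. Just inside the threshold lay Sult2a3 and Sult2b1, whose second highest values were 10.2 and 11.8. Just outside it lay Sult2a6 and Sult6b1, at 5.83 and 4.61.

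Messenger RNA was sequenced from mice given DEN, the liver carcinogen diethylnitrosamine, and kept on a high-fructose or a cornstarch diet. The 6 groups were liver at 5 months under cornstarch (3 libraries) and under fructose (2 libraries), liver at 9 months under cornstarch (3) and under fructose (3), and liver tumours at 9 months under cornstarch (2) and under fructose (3). Every library came from a DEN-treated mouse, so each group, cornstarch included, carries the carcinogen, and an untreated liver was not analysed here. The months are the labelled ages. Strain, genotype and sex are not given in the sources used here, nor is it stated which tumour and which liver came from the same animal or whether tissue was pooled, so a p-value reflects only how far these libraries spread, which may be technical.

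Conjugation makes lipid-soluble compounds easier to excrete by joining them to a water-soluble group. UGT enzymes of the endoplasmic reticulum attach a sugar, usually glucuronic acid, to bilirubin, steroids, bile acids and drugs. SULT enzymes of the cytosol attach sulfate to hormones, phenols and bile acids, and GST enzymes attach the tripeptide glutathione to reactive electrophiles such as epoxides and products of lipid peroxidation. Hepatocytes are the main site of all 3 reactions, and many of these genes are known to respond to xenobiotic and oxidative stress sensors and, in rodents, to differ between the sexes.

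Members of a family lie side by side in the genome and can be close copies, which bears on every value below. The 8 Ugt1a genes lie on chromosome 1 and share their last exons, the 8 Ugt2 genes on chromosome 5, the 7 Sult2 genes on chromosome 7, the 7 Gstm genes on chromosome 3 and the 3 Gstp genes on chromosome 19. In the GENCODE M21 transcripts, 96.0% of the 50-base stretches of Ugt1a6a, 79.8% of those of Ugt1a6b and 54.2% to 64.0% of those of the other Ugt1a genes also occurred in another gene. The share was 89.7% for Gsta1 (mostly with the gene model Gm3776), 47.4% for Gsta2, 51.0% for Gstp1, 50.4% for Gstp2, 62.1% for Sult2a2, 41.7% for Ugt2b5 and 37.4% for Ugt2b38. Reads from those stretches were divided between the copies by the authors' estimate, so the split between such genes is less certain than their sum. No stretch of Gsta3, Gsta4, Gstk1, Sult1b1, Sult1e1 or Ugt2b1 was shared.

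In the alpha and in the pi class of GST, 1 of a pair of close copies was called between tumour and liver and the other was not, so the 250 bases before their RefSeq starts are shown to let the copies be compared. Gstp1 (chr19:4035407-4037985, minus strand) and Gstp2 (chr19:4040285-4046023, minus strand) are neighbours on chromosome 19, and Gsta1 (chr9:78230656-78242684, plus strand) and Gsta2 (chr9:78331018-78355788, minus strand) lie on chromosome 9. Those gene coordinates are from GENCODE M21, whose starts differ from RefSeq's: the RefSeq windows of Gstp2 and Gsta2 lie inside the longer GENCODE genes, and those of Gstp1 and Gsta1 overlap the first bases of theirs. The windows are RefSeq sequence of GRCm38.p6, written 5′ to 3′ on the gene's strand, at chr19:4037913-4038162 for Gstp1, chr19:4042222-4042471 for Gstp2, chr9:78230419-78230668 for Gsta1 and chr9:78347146-78347395 for Gsta2. Capitals mark matches, on either strand, to TGANNNNGC (a loose form of the antioxidant response element core), TTCNNNGAA (a STAT element) or GCGTG (the xenobiotic response element core).
Gstp1: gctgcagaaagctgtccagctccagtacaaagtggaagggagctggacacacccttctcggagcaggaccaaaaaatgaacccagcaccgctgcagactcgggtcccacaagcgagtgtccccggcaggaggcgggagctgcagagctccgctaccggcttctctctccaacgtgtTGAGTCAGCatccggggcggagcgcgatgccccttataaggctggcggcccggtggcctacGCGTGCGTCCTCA
Gstp2: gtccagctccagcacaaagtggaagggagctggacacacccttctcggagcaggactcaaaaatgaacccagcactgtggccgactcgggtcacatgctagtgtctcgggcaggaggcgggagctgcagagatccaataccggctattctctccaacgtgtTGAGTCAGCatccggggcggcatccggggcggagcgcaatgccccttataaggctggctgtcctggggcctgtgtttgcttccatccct
Gsta1: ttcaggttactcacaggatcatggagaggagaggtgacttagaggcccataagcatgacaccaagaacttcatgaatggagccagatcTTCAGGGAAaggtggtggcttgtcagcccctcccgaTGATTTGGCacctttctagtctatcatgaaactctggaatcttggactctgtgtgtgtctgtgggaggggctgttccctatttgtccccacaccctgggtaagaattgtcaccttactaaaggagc
Gsta2: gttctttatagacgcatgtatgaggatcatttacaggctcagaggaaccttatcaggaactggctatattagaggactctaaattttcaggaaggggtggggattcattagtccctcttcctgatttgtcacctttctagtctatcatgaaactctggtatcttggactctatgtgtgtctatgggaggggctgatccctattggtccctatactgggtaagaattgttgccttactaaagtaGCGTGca
The Gstp windows were 79.2% identical and the Gsta windows 73.0%, by edit distance. Both Gstp windows hold TGAGTCAGC, and the last capitals of the Gstp1 window are a GCGTG that overlaps a TGANNNNGC match on the other strand. The Gsta1 window holds 1 TTCNNNGAA and 1 TGANNNNGC match, and the Gsta2 window only a GCGTG.

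Over windows of 250 bases before to 50 after the start, which RefSeq gives for 46 of the 54 genes, each motif was also counted over all promoters. TGANNNNGC, added as a motif after the windows were seen, occurred before 23 of 46 members (50%) and before 45.0% of all 27025 genes with a window. By superfamily it occurred before 5 of 16 UGT (31.25%), 6 of 12 SULT (50%) and 12 of 18 GST genes (66.7%). The stricter core TGACNNNGC, whose matches are a subset of those, occurred in 3 of 46 (6.52%, in Gsta3, Gstm5 and Gstm7) against 14.0% of all genes. TTCNNNGAA occurred in 4 of 46 (8.70%) against 9.55%, and GCGTG in 10 of 46 (21.7%) against 35.2%. A match is only a match of letters in this window.

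Library depth was 11232461 to 38377674 reads. One of the 3 cornstarch livers and one of the 2 fructose livers at 5 months (replicate 1 of each) held Xist, at 10883 and 12936, and a summed Y-linked signal of at most 1.91, while the other 14 libraries had a Y-linked sum of 1593 to 2602. Of these 14, cornstarch liver replicate 3 at 9 months held Xist at 226 beside a Y-linked sum of 1593, and the rest held at most 25.8. Each 5-month group is therefore mixed in Y-linked signal, and counts are also given with these 2 libraries removed. The livers held hepatocyte RNA throughout: the 8 hepatocyte markers, Alb among them, were all detected in every library, and none passed the test between diets at 5 or at 9 months (1 of 8 was lower over both ages). Their median log2 difference, fructose minus cornstarch, was -0.39 at 5 months and -0.10 at 9 months, against -0.01 and -0.02 over all genes. The 2 fructose livers at 5 months also held neutrophil markers at a summed 25144 and 22735, against 11.3 to 96.4 in the cornstarch livers of that age and 183 to 301 in fructose livers at 9 months. All 8 neutrophil, 4 of 9 macrophage and 6 of 8 stellate cell and fibroblast, 2 of 6 endothelial and 3 of 4 tested red cell precursor markers were higher in the fructose livers at 5 months, and the mitochondrial share of reads was 3.49% and 2.93% there against 5.00% to 5.83%. These changes ran beside every diet difference at 5 months below. Their part in it was not tested, and fewer cells of a type cannot be told apart from less RNA per cell in these bulk samples.

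Together the members took 0.32% (fructose liver at 5 months, replicate 2) to 1.59% (fructose tumour replicate 3) of a library's reads. Per kilobase of exon, and averaged over the 16 libraries, GST genes made up 54.4% of the members' level, UGT genes 33.8% and SULT genes 11.7%. Gstm1, the main mu-class GST of mouse liver, stood first at 15762 per kilobase. It was followed by Gstp1 (4597), Ugt1a1, the bilirubin enzyme (4597), Sult1a1, a phenol sulfotransferase (4442), the steroid enzyme Ugt2b5 (4337) and Gsta3, the constitutive alpha-class enzyme (4214). By family, the mu class held 29.9% of the per-kilobase level, the Ugt2 family 20.8%, the Ugt1 family 10.7%, the Sult1 family 8.76%, the alpha class 8.15%, the pi class 7.60% and the theta class 3.94%. The remaining families held less than the theta class each.

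Summed over the UGT genes, the 5-month livers held 63584, 80339.7 and 85338 under cornstarch against 43206 and 25566 under fructose. At 9 months the UGT sum was 66556, 75737 and 77635 under cornstarch and 70229, 55683 and 44890.2 under fructose, and in tumours 53448 and 28421 under cornstarch and 21586, 41237 and 59342 under fructose. The 2 diets did not overlap at 5 months and did at 9 months. The SULT sum was 21777, 23269 and 24165 against 12866 and 9114 at 5 months and 18173, 25286 and 24393 against 17635, 11325 and 12632 at 9 months, with no overlap at either age. In tumours it was 13028 and 8522 under cornstarch and 9331, 19030.4 and 6793 under fructose. In livers at 9 months the Sult2 family, mostly Sult2a8, had a mean sum of 13888 under cornstarch and 4483 under fructose. The Sult1 family had 8548 and 9172, and 9 of 14 tested SULT genes had a positive diet difference at that age. The GST sum was 70702, 80446 and 90124 against 45305 and 32126 at 5 months and 81519, 69414 and 83598 against 66240.2, 77919 and 66023 at 9 months. Tumours ran from 34503 to 180178, both extremes being fructose tumours.

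**Figure D1:**
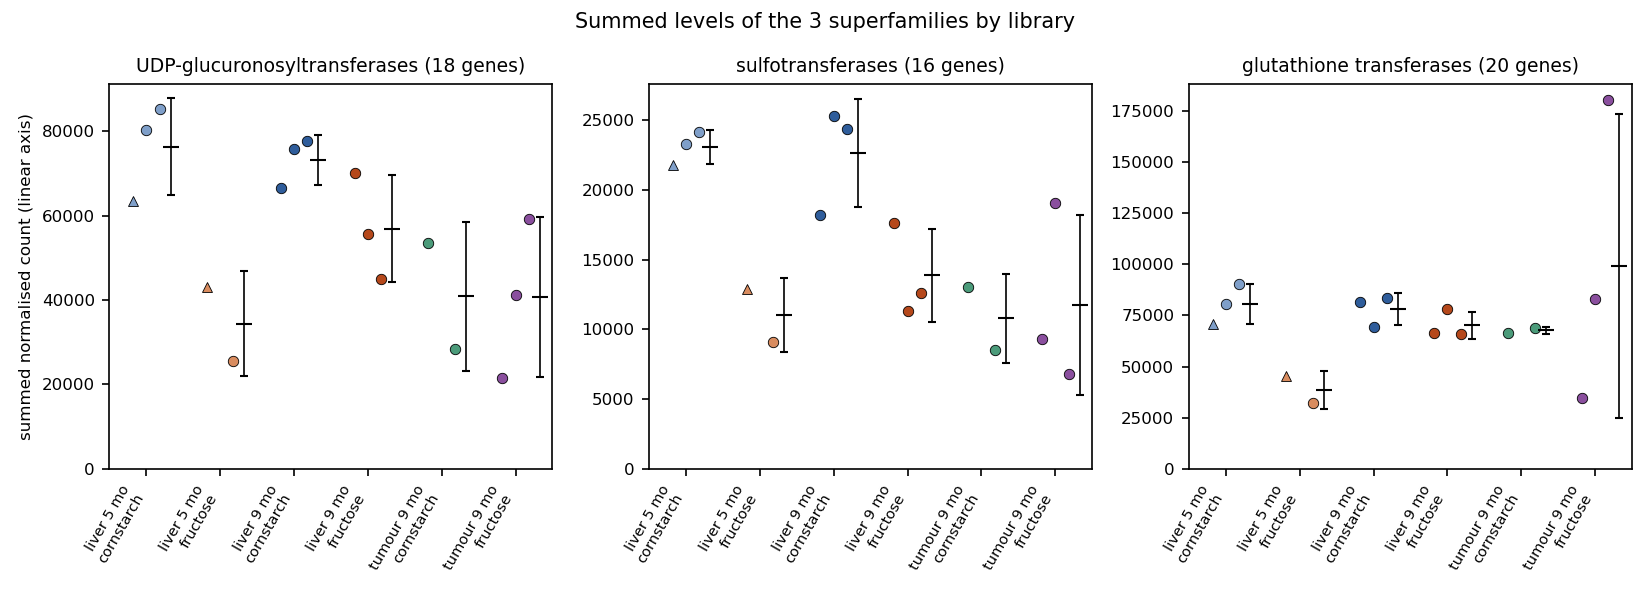
Summed normalised counts (linear axis) of the UGT, SULT and GST genes in each of the 16 libraries, by group; points are libraries, triangles the 2 libraries with almost no Y-linked signal, and bars the mean ± SD. Both fructose livers at 5 months lie below all 3 cornstarch livers in each panel, and the highest GST sum, 180178, is 1 fructose tumour.

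**Figure D2:**
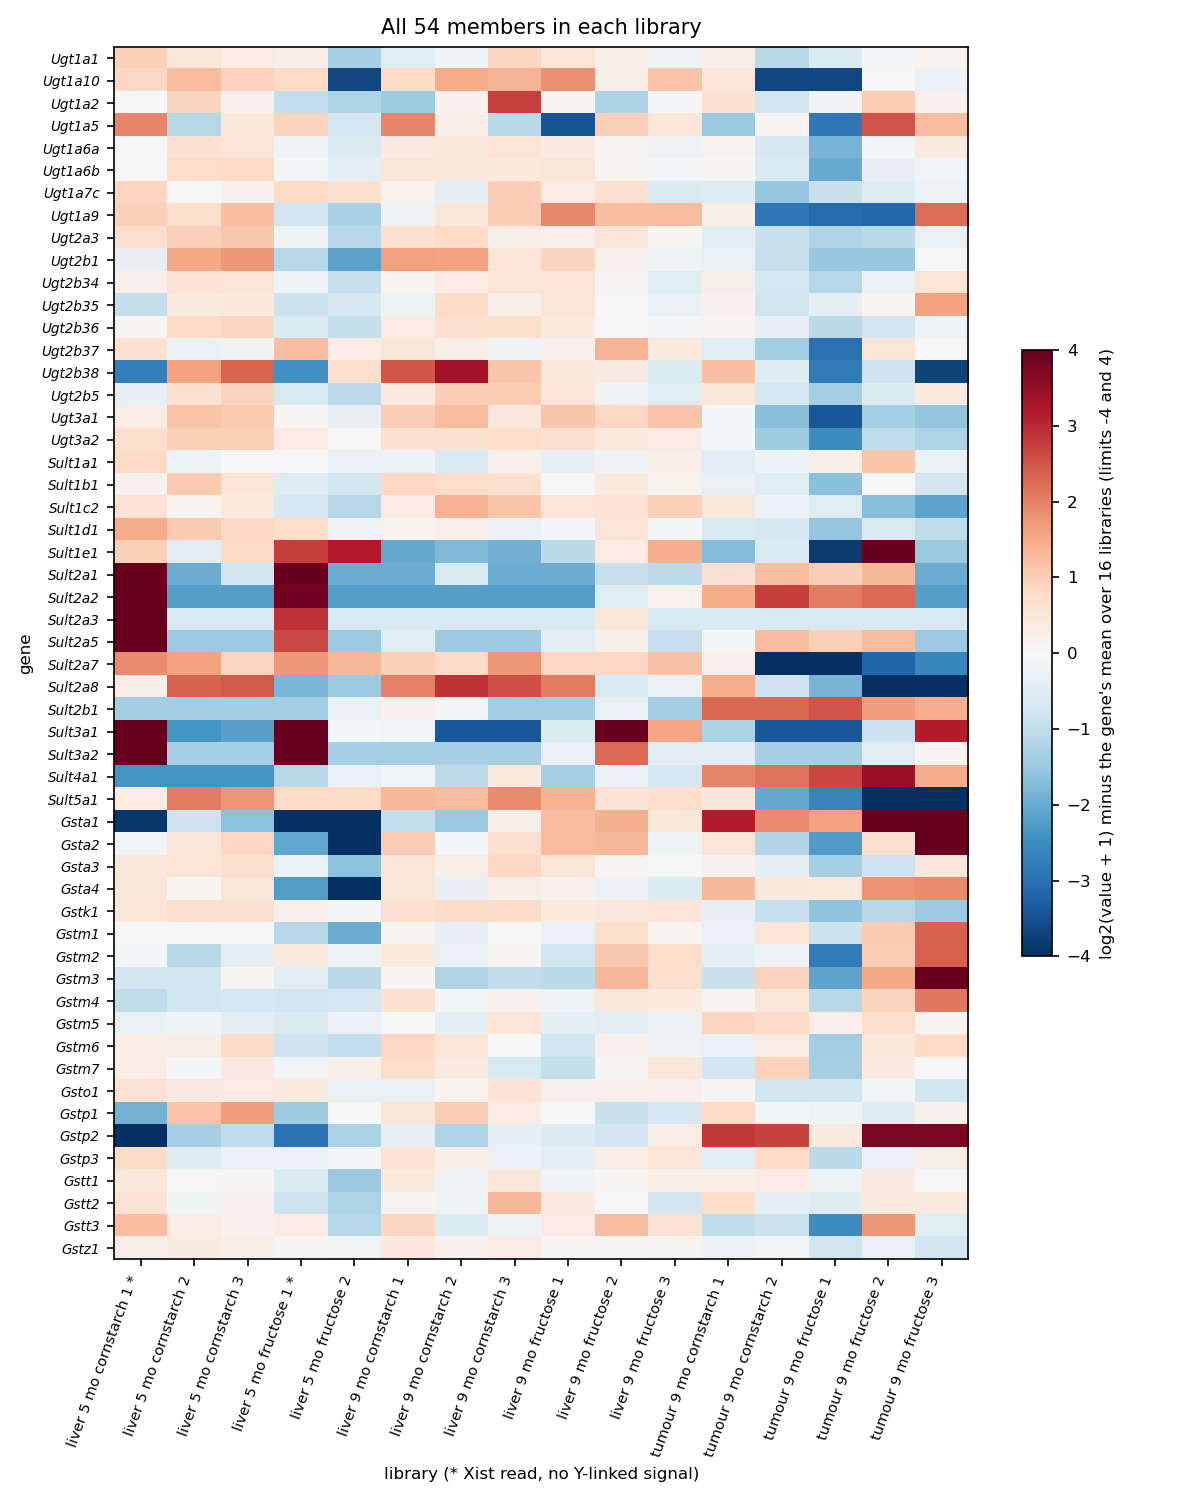
Log2(value + 1) of the 54 members (rows) in the 16 libraries (columns) minus each gene's mean over the libraries, with colours limited to -4 and 4; red is above the mean and blue below. The 2 starred libraries stand out at Sult2a1 to Sult2a5, Sult3a1 and Sult3a2, and most tumours at Gsta1, Gstp2, Sult4a1 and Sult5a1. Of these, Sult2a1, Sult2a3, Sult2a5 and Sult3a2 passed the level filter because of the starred libraries, and Sult4a1 because of the tumours.

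At 5 months, fructose livers held less of many phase II transcripts, and the 2 largest falls with a fold given were those of the alpha-class GST genes Gsta2 and Gsta4. Of the 52 members that could be tested, 17 were lower and 1 was higher than in cornstarch livers (limma on log2(value + 1), Benjamini-Hochberg adjusted p under 0.05), beside 14.8% of all 14317 genes tested (4.48% lower and 10.3% higher). The members' median log2 difference was -0.74, against -0.01 over all genes. By superfamily, 6 of 18 UGT, 3 of 14 SULT and 8 of 20 GST genes were lower, and the 1 that was higher was a SULT. Sult2b1 and Sult4a1 were too low to test in liver.

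Among the UGT genes, Ugt2b1, an enzyme for steroids and phenols, stood at 2809, 10256 and 11866 in the cornstarch livers and 1593 and 798 in the fructose livers, 6.20-fold lower (log2 difference -2.63, SE 0.61, limma adjusted p 0.017). Replicate 1 of the cornstarch livers, without Y-linked signal, lay closest to the fructose livers, and without it the log2 difference was -3.29. Ugt1a9, which glucuronidates phenols, stood at 1098, 907 and 1298 under cornstarch and 333 and 229.6 under fructose, 3.93-fold lower (adjusted p 0.0035). Ugt2a3, known for bile acid substrates, was 4923, 5854 and 6474 against 2738 and 1388, 2.93-fold lower (adjusted p 0.0049). The groups did not overlap for any of these 3. Ugt2b36, a steroid and bile acid enzyme by family, went from 7017, 11805 and 12524 under cornstarch to 4718 and 3556 under fructose, 2.47-fold lower, again without overlap. Ugt1a6a, a phenol enzyme, was 1.69-fold and Ugt3a2, of a family that uses other sugars, 1.61-fold lower. The bilirubin enzyme Ugt1a1 did not pass the test: it was 18094, 12900.3 and 11684 under cornstarch and 11069.6 and 3786 under fructose (log2 difference -1.11, SE 0.48, adjusted p 0.15), with replicate 2 of the fructose livers far below the rest. Ugt2b5 (adjusted p 0.053), Ugt2b34 (adjusted p 0.054) and Ugt1a6b (adjusted p 0.070) had negative differences of -1.24, -0.98 and -0.73 log2 units that missed the threshold. Ugt1a5, whose exons are largely those of its neighbours, was 4620.5, 542 and 1625 against 2208 and 729.9 (adjusted p 0.90).

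Among the SULT genes, Sult2a8, a bile acid sulfotransferase, fell most: it was 2839, 12146 and 13011 in the cornstarch livers and 664 and 868 in the fructose livers, 10.1-fold lower (log2 difference -3.33, SE 0.79, limma adjusted p 0.019). Its cornstarch value was lowest in replicate 1, which had almost no Y-linked signal, and without it the log2 difference was -4.05. Sult1b1, which sulfates thyroid hormones and phenols, was 327, 611 and 415 against 204 and 175, 2.30-fold lower (adjusted p 0.0071). Sult1c2 was 156, 111 and 137 against 65.6 and 46.8, 2.38-fold lower (adjusted p 0.022). The groups did not overlap for these 3 genes. Sult1e1, the estrogen sulfotransferase, went the other way: 146, 54.4 and 129 under cornstarch and 522 and 682 under fructose, 5.86-fold higher (log2 difference 2.55, SE 0.61, adjusted p 0.020). It was the only member called higher. Sult1a1, the most abundant sulfotransferase per kilobase, was 11074, 5623 and 6408 against 6477 and 5268 (adjusted p 0.53), and the catecholamine enzyme Sult1d1 was 5938, 4418 and 3824 against 3579 and 1916 (adjusted p 0.081).

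All 4 alpha-class GST genes were lower in the fructose livers at 5 months. Gsta4, which clears the lipid peroxidation product 4-hydroxynonenal, stood at 596, 456 and 599 under cornstarch and 90.4 and 19.4 under fructose, 12.7-fold lower (log2 difference -3.66, SE 0.50, limma adjusted p 0.0015). Gsta2 was 116, 176 and 222 against 29.2 and 3.43, 14.4-fold lower (adjusted p 0.0062). Gsta3 was 22719, 24138 and 27217 against 13861 and 5324, 2.87-fold lower (adjusted p 0.018). In all 3, replicate 2 of the fructose livers held the lowest value of the 5 libraries. Without that replicate the log2 difference was -2.58 for Gsta4, -2.47 for Gsta2 and -0.83 for Gsta3, and without replicate 1 it was -4.74, -5.24 and -2.21. Gsta2 did not pass without replicate 2, nor Gsta3 without that replicate or cornstarch replicate 2 or 3. Gsta1 was 6.68, 60.6 and 34.6 against 2.92 and 1.14, also lower (adjusted p 0.023). Its fructose values are 2 and 1 reads, so no fold is given. It did not pass without any 1 of the 5 libraries other than cornstarch replicate 1.

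Fewer of the mu- and theta-class genes passed at that age, 2 of 7 and 1 of 3. Gstm1 was 18799, 18629 and 18372 under cornstarch and 8293 and 4603 under fructose, 3.01-fold lower (adjusted p 0.0076), with cornstarch values close to each other. Gstm6 was 1247, 1199 and 1727 against 576 and 515, 2.52-fold lower, and the other 5 mu-class genes did not pass the test. Gstm2 was 1248, 609 and 989 against 1714 and 1122, and Gstm3 489, 475 and 858 against 601 and 393, with overlapping groups. Gstt1, which handles small halogenated compounds, was 4138, 3149 and 3202 against 2099 and 1113, 2.27-fold lower (adjusted p 0.016). The mitochondrial enzyme Gstk1 was 1492, 1633 and 1597 against 1212 and 995, 1.43-fold lower (adjusted p 0.018). Both fructose livers lay below the cornstarch livers for these 2 genes. Gstt2 was 1401, 830.0 and 1060.0 against 528 and 396 (adjusted p 0.083), and Gstt3 2048, 1060.0 and 973 against 1082 and 391 (adjusted p 0.24). Gstp1, the pi-class enzyme, was 1582, 13020.5 and 18742 under cornstarch and 2195 and 5876 under fructose (adjusted p 0.47), and the lowest value of each group was the library without Y-linked signal. Gstp3, the third pi-class gene, was 463, 190.0 and 226 against 228 and 259 (adjusted p 0.82). Gstz1, the maleylacetoacetate isomerase of tyrosine breakdown, was 11515, 12285 and 11549 against 10288 and 8880.0 (adjusted p 0.20), and the thioltransferase gene Gsto1 1540.5, 1328 and 1318 against 1371 and 843 (adjusted p 0.35).

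Calls at 5 months depended on replicate 2 of the fructose livers, among the members and among all genes. Without it 1 member was called, Gsta4, beside 3.25% of all genes, and without replicate 1 of the fructose livers 17 were, beside 7.47%; the 1 fructose liver left was then taken to vary like the other groups. Leaving out cornstarch replicate 1, 2 or 3 gave 23, 10 and 9, beside 14.3%, 8.31% and 8.84% of all genes. Without the 2 libraries that lacked Y-linked signal, 20 members were lower and none higher, beside 6.92% of all genes, from 1 fructose and 2 cornstarch libraries. Sult1e1 did not pass there or without any 1 of the fructose livers or cornstarch replicate 2, and Sult2a8 did not without any 1 library other than cornstarch replicate 1.

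**Figure D3:**
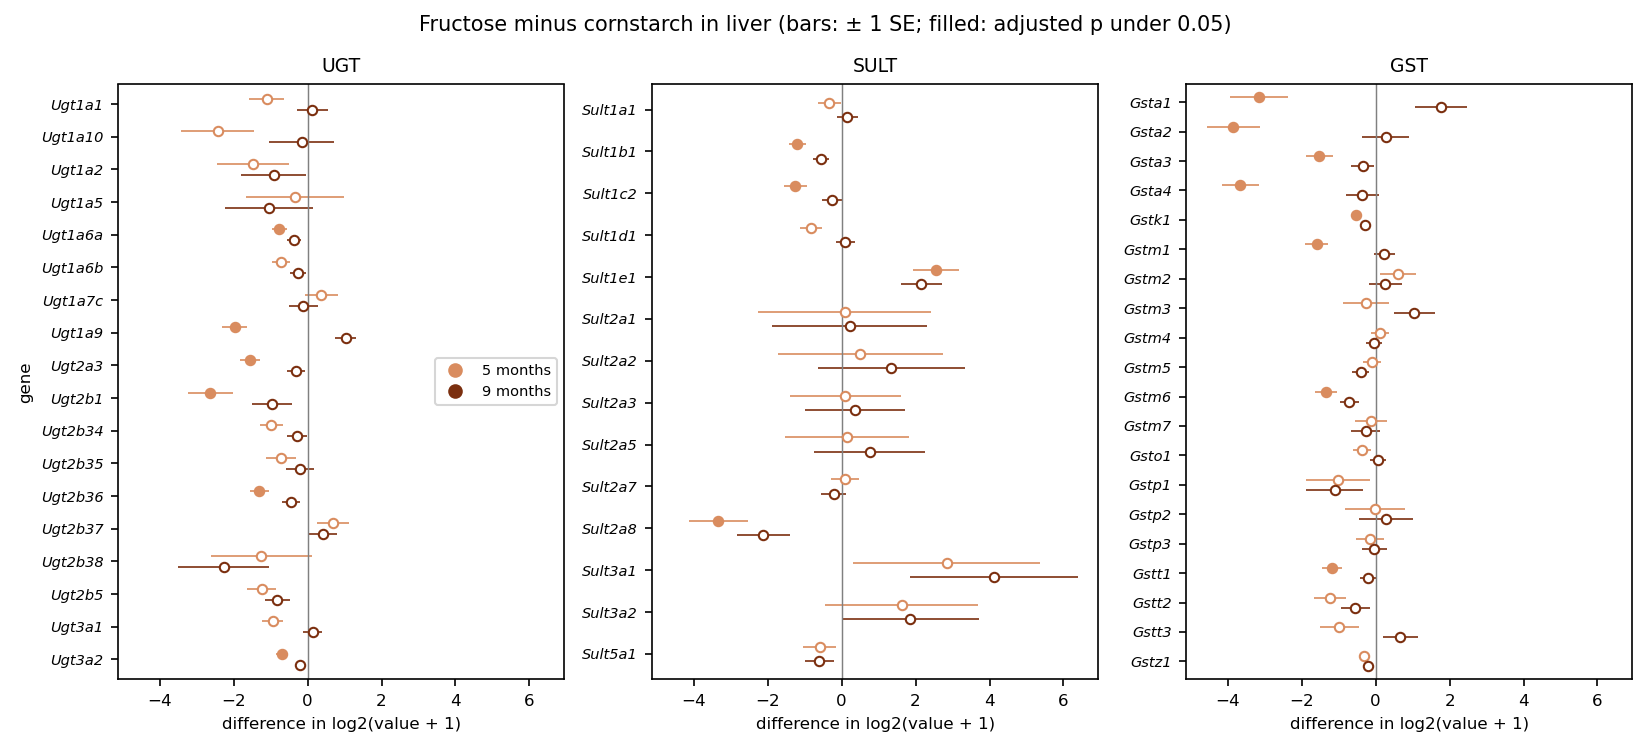
Fructose minus cornstarch difference in log2(value + 1) in liver for each tested member at 5 months (light) and 9 months (dark), by superfamily; bars are ± 1 SE and filled points passed the adjusted p of 0.05. Filled points lie left of 0 at 5 months except Sult1e1, no point at 9 months is filled, and the Gsta1 point at 5 months rests on 3 fructose reads.

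At 9 months the same diet contrast gave no call among the members. None of 52 passed limma's adjusted p of 0.05, beside 2.54% of all genes (2.32% higher and 0.217% lower). By limma 8 had an unadjusted p under 0.05, which was counted over the members only, here and below. Of the members, edgeR called 1 higher, beside 2.7% of all genes called, and DESeq2 2 higher, beside 7.05%. The median difference of the members was -0.19 log2 units, against -0.02 over all genes. Sult1e1 stood at 17.4, 21.5 and 19.1 under cornstarch and 35.4, 95.2 and 208 under fructose (log2 difference 2.15, SE 0.55, limma adjusted p 0.069). All 3 fructose livers lay above the cornstarch livers, and edgeR and DESeq2 both called it. Sult2a8 was 9574, 17719 and 14251 under cornstarch and 9832, 1532 and 1976 under fructose (adjusted p 0.14), and replicate 1 of the fructose livers lay among the cornstarch livers. No alpha-class gene passed: Gsta4 was 599.8, 343 and 521 against 487, 362 and 289 (log2 difference -0.36, SE 0.45, adjusted p 0.69). Gsta1 was 55.9, 38.4 and 131 against 256, 295 and 150.0, with every fructose value above the cornstarch values (adjusted p 0.19). Gstp1 was 8008, 11929 and 7423 against 5955, 3177 and 3741, without overlap (adjusted p 0.45). Neutrophil markers summed to at most 72.2 in the cornstarch and to 183 to 301 in the fructose livers at this age, where 6 of 9 macrophage markers were higher under fructose. So were 4 of 8 stellate cell and fibroblast, 1 of 6 endothelial and 1 of 8 neutrophil markers. Of 10 male-biased and 10 female-biased liver genes 0 were called, with median log2 differences of -1.93 and 2.22. The part of these in the members' values was not tested.

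Taken as the mean of both ages, the diet difference was below 0 for 39 of 52 members, and 17 were lower and 1 higher, beside 21.4% of all genes tested (7.61% lower and 13.8% higher). The 17 included 7 UGT, 3 SULT and 7 GST genes. Relative to the list at 5 months, Ugt2b5 (2.04-fold) and Ugt2b34 (1.55-fold) entered, and Ugt1a9 and Gsta1 did not pass. Ugt2b34 lost the threshold in 14 of 21 alternatives. The largest falls were those of Sult2a8 (6.60-fold, adjusted p 0.0055), Gsta4 (4.03-fold, adjusted p 0.0027) and Ugt2b1 (3.48-fold, adjusted p 0.012). Sult1e1 was 5.11-fold higher (log2 difference 2.35, SE 0.41, adjusted p 0.0033). This mean contains the values at 5 months and is not a separate observation. Over both ages all 9 macrophage and all 8 neutrophil, 5 of 6 endothelial and 6 of 8 stellate cell and fibroblast markers were higher under fructose, and their part in the members' difference was not tested. Without replicate 2 of the 5-month fructose livers 7 members passed, beside 10.0% of all genes, and Gsta2 did not (log2 difference -1.10). Gsta2 also missed the threshold without 9-month fructose replicate 3 or 5-month cornstarch replicate 2 or 3.

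Whether the diet difference itself changed with age was tested as the difference at 9 months less that at 5 months. Ugt1a9 was the 1 member of 52 that passed, beside 0.698% of all genes, nearly all of them with a negative difference (0.691%, against 0.00698% positive). It was 506, 782 and 1134 under cornstarch and 2138, 1301 and 1366 under fructose at 9 months, so the fructose livers were below cornstarch at 5 months and above it at 9 months, without overlap at either age. Its 2 diet differences were -1.98 and 1.03 log2 units, and their difference was 3.0 (SE 0.44, limma adjusted p 0.022). Without replicate 2 of the 5-month fructose livers, without replicate 3 of the 5-month cornstarch livers, without the 2 libraries lacking Y-linked signal, or in 1 fit of all 16 libraries it did not pass. The Ugt1a genes share their last exons, so this rests on the authors' split of reads between first exons.

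With age, cornstarch livers gave no call among the 52 members by limma, beside 0% of all genes, with 3 at an unadjusted p under 0.05. There were 0 calls among the members by edgeR, beside 0% of all genes, and 3 by DESeq2, beside 1.34%. Fructose livers gave 6 higher and 1 lower at 9 than at 5 months, beside 3.48% of all genes (0.664% higher and 2.81% lower). Gsta2 rose from 29.2 and 3.43 to 301, 317 and 111, 19.1-fold (log2 difference 4.25, SE 0.72, adjusted p 0.011). Gsta4 rose from 90.4 and 19.4 to 487, 362 and 289, 8.60-fold (adjusted p 0.0096). Gsta1 was 256, 295 and 150.0 at 9 months (adjusted p 0.0033, no fold given). Ugt1a9 rose 5.63-fold, Gstm1 3.34-fold to 14991, 29881 and 19593, and Sult1c2 2.99-fold. Sult1e1 fell 6.63-fold (adjusted p 0.037). The same 5-month fructose libraries enter this contrast and the diet contrast at 5 months, so they are not independent. Without replicate 2 of those livers no member passed, with 13 at an unadjusted p under 0.05, beside 0.205% of all genes; the log2 difference was then 2.87 for Gsta2 and 2.02 for Gsta4, and 5.64 and 4.19 without replicate 1. Left out in turn, 4 of the 5 fructose livers ended the call of Sult1e1; its log2 difference was -2.08 without 9-month replicate 1, and it passed at -3.34 without 9-month replicate 3. All 8 neutrophil markers fell over the same interval.

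**Figure D4:**
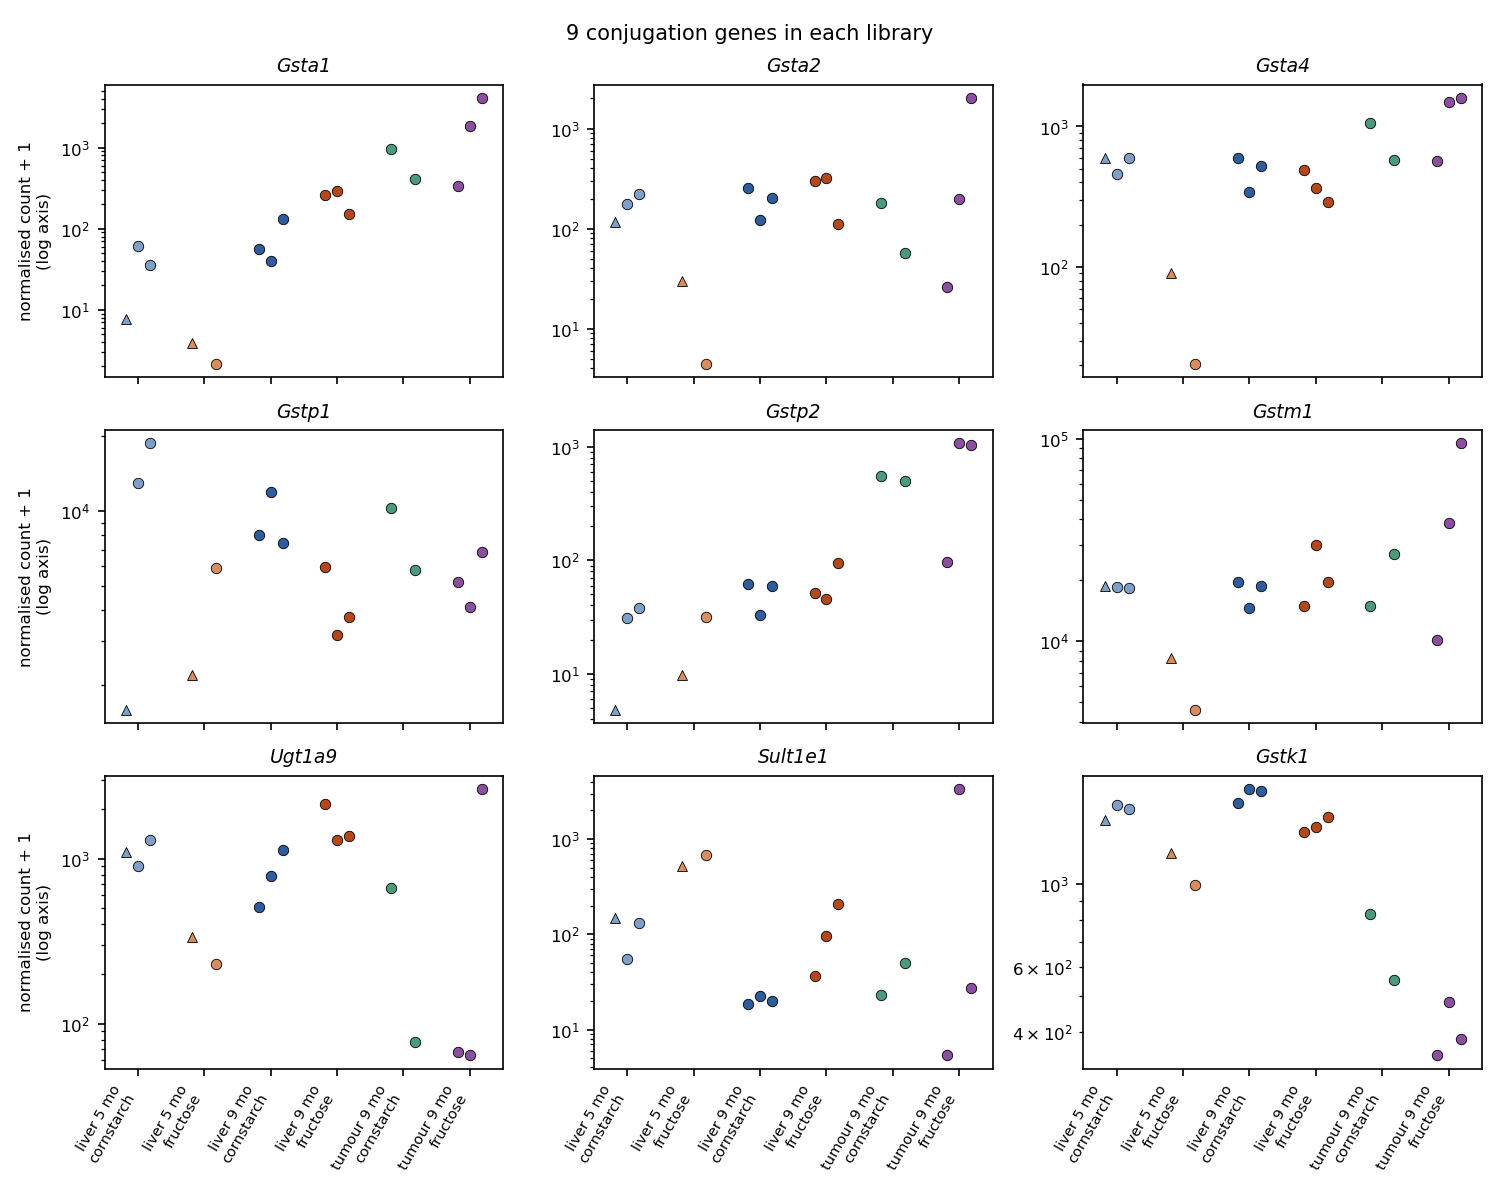
Normalised counts plus 1 (log axis) of 9 members in every library, by group; points are libraries and triangles the 2 libraries with almost no Y-linked signal. Gsta1, Gsta2 and Gsta4 are lower in the fructose livers at 5 months than in any other liver, Gstp2 is higher in every tumour than in every liver, by little in 1 of them, Gstk1 is lower in every tumour than in every liver, and Sult1e1 reaches 3337 in 1 fructose tumour.

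In tumours, set against liver of the same age over both diets, the UGT genes that passed were all lower (7 of 18), while 6 SULT genes were lower and 3, which reached the filter through the tumours only, higher, and 3 GST genes lower and 4 higher. In all, 16 of 50 tested members were lower and 7 higher, beside 23.8% of all 14503 genes tested (10.5% lower, 13.4% higher). The members' median log2 difference was -0.52, against -0.01 over all genes. That of the 8 hepatocyte markers was -0.66 over both diets, -1.10 under fructose and -0.16 under cornstarch. Over both diets 1 hepatocyte marker was called higher and 0 lower, and their part in the members' difference was not tested. Sult2a1, Sult2a3, Sult2a5 and Sult3a2 were too low to test. Of the 50, 7 reached the level filter in only 1 of the tissues, so their entry into the test itself favoured a difference. Among the 43 that reached it in both, 14 were lower (6 UGT, 5 SULT and 3 GST) and 4, all GST, were higher. Within fructose 10 were lower and 4 higher (10.2% of all genes, 4.46% lower and 5.75% higher), and within cornstarch, with 2 tumours, 2 were lower and 1 higher (5.71% of all genes, 0.889% lower and 4.82% higher).

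Among the UGT genes, both Ugt3 genes fell. Ugt3a1 was 1107, 1320.0 and 733 in cornstarch livers, 1185, 983 and 1214 in fructose livers, 536 and 172 in cornstarch tumours and 51.3, 218 and 183 in fructose tumours, 5.43-fold lower over both diets (log2 difference -2.44, SE 0.40, limma adjusted p 0.0023). Ugt3a2 was 5338, 5324 and 5734 in cornstarch livers, 5517, 4541 and 4321 in fructose livers, 3397 and 1294 in cornstarch tumours and 596, 1716 and 1484 in the fructose tumours, 3.29-fold lower (adjusted p 0.0035). For both, each tumour lay below each liver, and cornstarch tumour replicate 1 was the nearest to them. Ugt2a3 was 4869, 5281 and 3639 in cornstarch livers, 3491, 4349 and 3175 in fructose livers, 2292 and 1632 in cornstarch tumours and 1310.3, 1438 and 2497 in the fructose tumours, 2.26-fold lower (adjusted p 0.0026) and passed within each diet alone. Within cornstarch it lost the threshold in 6 of 13 alternatives. Ugt2b1 was 11028, 10849 and 5086 in cornstarch livers, 6586, 4031 and 3054 in fructose livers, 2899 and 1874 in cornstarch tumours and 1254, 1233 and 3525 in the fructose tumours, 2.99-fold lower. Ugt2b36 was 1.65-fold and the low-level Ugt1a10 5.95-fold lower. Ugt1a10 did not pass without any 1 of the 6 livers, without replicate 2 of the cornstarch tumours (log2 difference -1.55) or without replicate 1 of the fructose tumours (-1.99). Ugt2b38 was 72.3, 135 and 27.4 in cornstarch livers, 16.6, 15.7 and 7.70 in fructose livers, 29.4 and 8.20 in cornstarch tumours and 0.87, 6.47 and 0 in the fructose tumours; it was called, but reached the filter through the livers. Ugt1a1 was 11186 and 4369.9 in the cornstarch and 6278, 9108 and 10089.6 in the fructose tumours, within the range of the 9-month livers except for replicate 2 of the cornstarch tumours and replicate 1 of the fructose tumours (adjusted p 0.36). Ugt1a9 varied widely between tumours, at 666 and 76.5 under cornstarch and 66.1, 63.1 and 2646 under fructose (adjusted p 0.11).

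Of the 7 SULT genes that reached the filter in both tissues 5 were lower and 0 higher (limma). Sult5a1, the member with the largest fold given for both diets, was 150.4, 148 and 225 in cornstarch livers, 158, 90.7 and 99.2 in fructose livers, 83.3 and 13.7 in cornstarch tumours and 8.69, 1.62 and 2.61 in fructose tumours, 11.1-fold lower (log2 difference -3.47, SE 0.47, limma adjusted p 0.00095). Without replicate 1 of the cornstarch tumours the log2 difference was -4.10, and without replicate 2 it was -2.84. Sult2a8 was 6443 and 1324 in the cornstarch and 649, 69.6 and 129 in the fructose tumours, 8.86-fold lower (adjusted p 0.0087). Sult2a7 was 31.8, 27.7 and 56.0 in cornstarch livers, 29.1, 29.1 and 37.2 in fructose livers, 18.5 and 0 in cornstarch tumours and 0, 0.81 and 1.74 in the fructose tumours, where the 3 fructose tumours held 3 reads together. Sult2a7 was called lower, but it reached the filter through the livers and is not one of the 5. Sult1c2 was 131, 278 and 226 in cornstarch livers, 149, 157 and 203 in fructose livers, 142 and 88.4 in cornstarch tumours and 74.8, 31.6 and 23.5 in the fructose tumours, 2.78-fold lower. Sult1b1 (2.07-fold) and Sult1d1 (1.91-fold) were also lower. Sult2b1, the cholesterol sulfotransferase, was 11.8 and 11.8 in the cornstarch and 13.9, 7.28 and 6.09 in the fructose tumours and at most 1.93 in the livers. Sult4a1, known mainly from brain, was 19.4 and 22.8 in the cornstarch and 33.0, 55.8 and 13.9 in the fructose tumours and at most 5.96 in the livers. Sult2a2 was 11.8 and 30.1 in the cornstarch and 18.3, 21.0 and 0 in the fructose tumours, against at most 4.08 in livers of that age. These 3 passed the filter through the tumours, so only their levels are given.

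Among the GST genes, 4 were higher and 3 lower over both diets. Gstp2 was 60.8, 32.3 and 58.4 in cornstarch livers, 51.0, 44.8 and 92.9 in fructose livers, 549 and 504 in cornstarch tumours and 96.5, 1071 and 1038 in fructose tumours, 9.14-fold higher (log2 difference 3.19, SE 0.58, limma adjusted p 0.0037), and it passed within each diet, though not within cornstarch without any 1 of its 5 libraries. Fructose tumour replicate 1 was only just above the highest liver. Its neighbour Gstp1 was 10271 and 5773 in the cornstarch and 5198, 4106 and 6866 in the fructose tumours and did not pass (log2 difference 0.07, SE 0.24, adjusted p 0.86). Gstp2 made up 0.20% to 2.42% of the 2 genes' summed count in the livers and 1.82% to 20.7% in the tumours. Gsta1 was 964 and 404 in the cornstarch and 336, 1845 and 4106 in the fructose tumours, 7.54-fold higher (adjusted p 0.0066), and each tumour lay above each liver. Gsta2 was 180.1 and 55.6 in the cornstarch and 25.2, 195 and 2030.4 in the fructose tumours (adjusted p 0.77), so that Gsta1 was 66.9% to 93.0% of their sum in tumours and 5.43% to 57.6% in livers. No test was run on these shares, and both pairs share sequence as given above. Gsta4 was 2.21-fold higher (adjusted p 0.022), at 1058 and 573 in the cornstarch and 564, 1504 and 1598 in the fructose tumours, with 2 tumours inside the range of the livers. It did not pass without fructose liver replicate 3, cornstarch liver replicate 2 or cornstarch tumour replicate 1. Gstm5 was 1.65-fold higher, but not without cornstarch tumour replicate 2.

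Gstk1 had the smallest adjusted p of the members. It was 1653, 1801 and 1777 in cornstarch livers, 1382, 1421 and 1511 in fructose livers, 832 and 550.2 in cornstarch tumours and 345, 481 and 383 in fructose tumours, 3.04-fold lower (log2 difference -1.60, SE 0.13, limma adjusted p 9.6e-05), and it passed within each diet. Gstz1 was 12662, 10798 and 12002 in cornstarch livers, 10085, 10047 and 10361 in fructose livers, 8162 and 8749 in cornstarch tumours and 5493, 7981 and 5601 in the fructose tumours, 1.51-fold lower. Gsto1 was 1.54-fold lower, but lost the threshold in 11 of 19 alternatives. Gstm1, Gstm2 and Gstm3 did not pass, and their tumour values were far apart: Gstm1 was 14986 and 27092 under cornstarch and 10161, 38368 and 94697 under fructose. Gstm3 was 447 and 1563 in the cornstarch and 193, 2387 and 23769 in the fructose tumours. Fructose tumour replicate 3 held the highest value of the 16 libraries for 7 of the 20 GST genes, and fructose tumour replicate 1 the lowest value of 22 members, leaving out 10 whose lowest value was tied. Such extremes were not counted over all genes. Gstt1 was 3678 and 3929 in the cornstarch and 2699.7, 3974 and 3096 in the fructose tumours, overlapping the livers (adjusted p 0.88).

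Without replicate 2 of the cornstarch tumours, 13 members passed over both diets, beside 10.4% of all genes, and none within cornstarch, beside 0.507% and with 7 members at an unadjusted p under 0.05, where 1 tumour then remained and its spread was taken from the other groups. Without any 1 of the 3 fructose livers, 8 passed within fructose, beside 3.94% to 4.97% of all genes, and without cornstarch liver replicate 1 or 2, 1 passed within cornstarch, beside 3.57% and 2.46%. Beside these differences, 6 of 10 male-biased liver genes, a list with Mup20 and Elovl3, were lower in tumours over both diets and none higher. Under fructose their mean log2 level was 12.0, 10.1 and 10.6 in liver against 9.15, 6.67 and 8.51 in tumour, and under cornstarch 12.4 to 13.0 in liver against 11.7 and 11.5 in tumour. Of 9 tested female-biased liver genes 1 was higher and 0 lower over both diets. The median log2 difference was -0.86 for the female-biased and -2.02 for the male-biased list. The mitochondrial share of reads was 2.54% to 4.29% in tumours and 4.68% to 7.73% in livers of 9 months, without overlap. The part of these in the members' differences was not tested. The bile duct and progenitor markers summed to 832 to 1590 in livers of 9 months and 1998 to 9974 in tumours, with 1 of 5 tested called higher, and the 4 kidney tubule markers summed to at most 2.24.

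**Figure D5:**
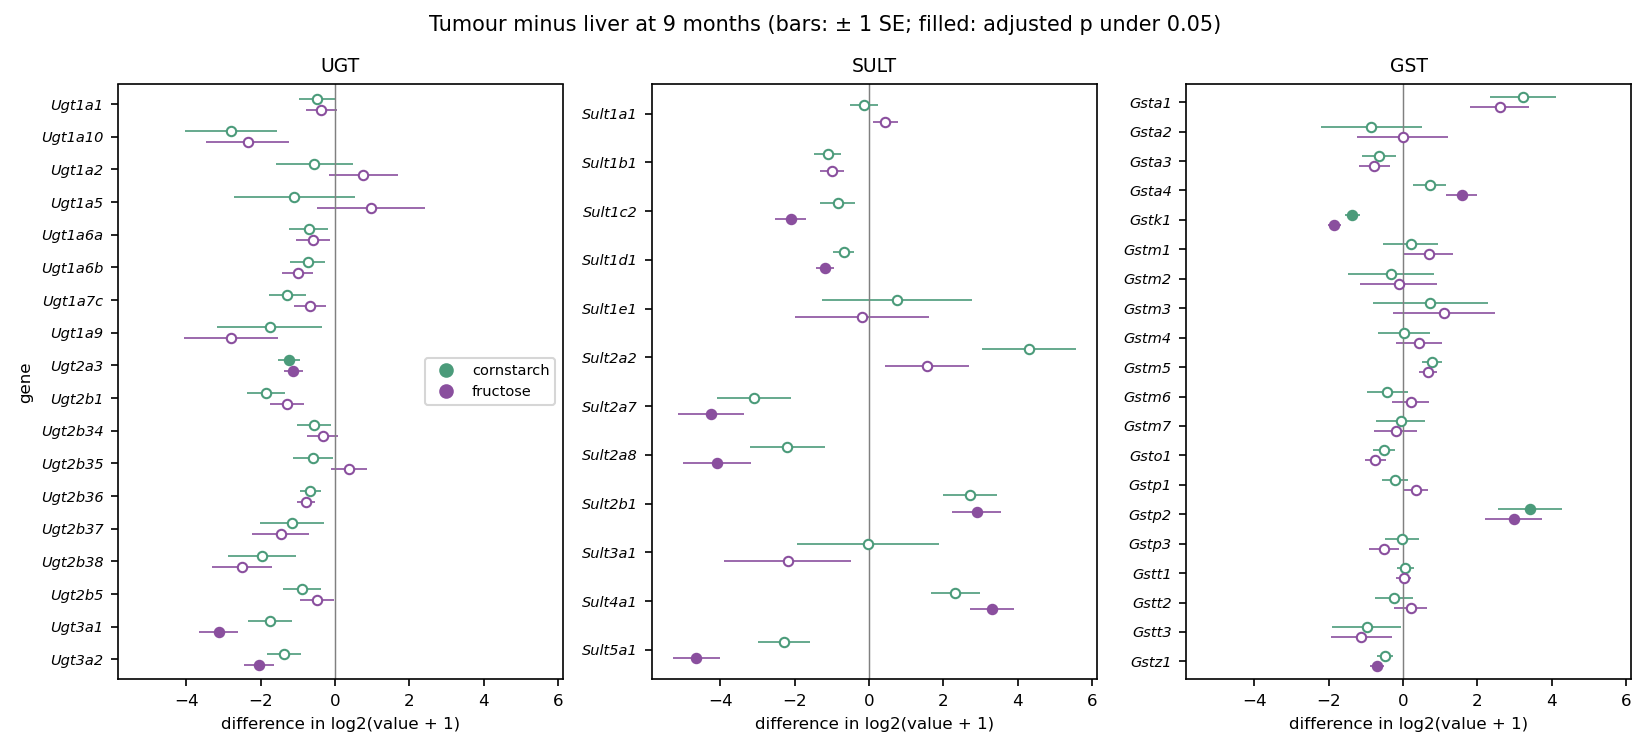
Tumour minus liver difference in log2(value + 1) at 9 months for each tested member under cornstarch (green) and fructose (purple); bars are ± 1 SE and filled points passed the adjusted p of 0.05. UGT points lie mostly left of 0, Gstp2 is filled on the right under both diets and Gstk1 on the left, and the points of Sult2a2, Sult2b1 and Sult4a1 come from genes near 0 in liver.

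Between tumours of the 2 diets none of 50 members passed by edgeR, beside 0% of all 14503 genes, and 2 were lower by DESeq2, beside 0.874%. By limma none passed, beside 0% of all genes, with 5 at an unadjusted p under 0.05. Those 5 were all lower in fructose tumours and did not overlap: Sult2a8 (6443 and 1324 against 649, 69.6 and 129), Sult5a1 (83.3 and 13.7 against 8.69, 1.62 and 2.61), Gstk1 (832 and 550.2 against 345, 481 and 383), Sult1c2 and Ugt2b38. Their limma adjusted p ran from 0.33 to 0.51. DESeq2 called Sult5a1 and Gstk1. The test of the diet difference in tumours against that in liver passed for no member by limma, again beside 0% of all genes, with 1 member at an unadjusted p under 0.05. None passed by edgeR or DESeq2, each beside 0% of all genes. Sult1e1 in tumours was 21.9 and 49.2 under cornstarch and 4.35, 3337 and 26.1 under fructose, so that 1 tumour held more of it than any liver.

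The female-biased sulfotransferases of mouse liver were highest in the 2 libraries of 5 months with almost no Y-linked signal. Sult2a1, a hydroxysteroid and bile acid enzyme, was 368 in the cornstarch and 101 in the fructose library of that kind, and at most 8.90 elsewhere. Sult2a1, Sult2a3 and Sult2a5 reached the level filter only in those 2 libraries, so their place there was fixed by the filter. Sult3a1, an amine sulfotransferase, was 473 and 871 in those 2 and also 222 in fructose liver replicate 2 at 9 months and 92.2 in fructose tumour replicate 3. Sult3a2 was 49.6 and 129.8 in those 2 libraries and 11.2 in the same 9-month liver, and at most 1.74 elsewhere, so it too passed the filter because of them. With 1 such library per diet, the diet difference of these genes has no replicate. In the same 2 libraries Gstp1 was 1582 and 2195 and Ugt2b38 0.95 and 1.46, below every liver with Y-linked signal. Sult2a8, at 2839 in the cornstarch library, was below the other 5 cornstarch livers.

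Beside 14.8% of all genes called at 5 months (10.3% higher and 4.48% lower), genes that supply or follow these enzymes were counted from fixed lists. At 5 months, among those for UDP-glucuronate supply 1 of 5 was lower in fructose livers, Ugp2, which makes UDP-glucose (2.80-fold). Of the 8 genes for sulfate activation and supply 2 were higher, Papss1 (1.84-fold), which makes the sulfate donor, and Slc35b3 (1.58-fold), which carries it into the Golgi. Of 12 genes for glutathione synthesis and turnover 3 were higher and 1 lower: Ggt1 rose 19.6-fold, Ggt5 3.06-fold and the reductase Gsr 1.59-fold, and Chac2 fell 1.66-fold. Of 6 microsomal glutathione transferases and relatives 2 were higher, Mgst2 (8.43-fold) and the leukocyte gene Alox5ap (10.8-fold). Of 6 conjugate exporters 2 were lower, Abcc3 (3.90-fold) and Abcc6 (1.68-fold). Of 5 tested hydrolases of conjugates 1 was higher, the glucuronidase Gusb (1.57-fold). Among other conjugation enzymes Inmt, a methyltransferase, was 9.57-fold lower. In fructose livers from 5 to 9 months, Abcc3 rose 3.48-fold, and Alox5ap (7.22-fold), Mgst2 (5.58-fold), Nnmt (3.48-fold), Ggt5 (3.06-fold), Oplah (1.62-fold) and Gusb (1.60-fold) fell. Over that interval 3.48% of all genes were called (0.664% higher and 2.81% lower).

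In tumours over both diets, where 23.8% of all genes were called (13.4% higher and 10.5% lower), 7 other conjugation enzymes named here were lower and 1 higher. Nnmt, which methylates nicotinamide, fell 10.2-fold, the arylamine acetyltransferase Nat1 6.40-fold, Baat, which joins bile acids to taurine, 2.53-fold, and the glycine transferase Glyat 2.19-fold, while the thiopurine methyltransferase Tpmt rose 1.76-fold. Inmt (3.97-fold), Nat2 (1.57-fold) and Hnmt (1.48-fold) were also lower. Glutathione supply was divided: of 11 tested genes 3 were higher, the cystine carrier Slc7a11 (14.9-fold, adjusted p 0.0036), Gss (2.16-fold) and Ggct (2.02-fold), and 2 were lower, Ggt5 (2.62-fold) and Chac2 (1.45-fold). The microsomal enzyme Mgst1 fell 2.71-fold. Of 6 exporters Abcc4 rose 5.43-fold and Abcb11 and Abcc6 fell 2.28-fold and 1.72-fold. Lower among the regulators were the bile acid receptor Nr1h4 (1.96-fold), its target Nr0b2 (1.78-fold) and Stat5b (1.28-fold), which carries the growth hormone signal. The supply genes Slc35b1 (2.04-fold), a nucleotide carrier, and Slc26a2 (1.84-fold), a sulfate carrier, were higher.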

How the data were processed

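Messenger RNA of 16 libraries was prepared with NucleoSpin extraction and an Illumina TruSeq mRNA kit, per the labels' protocols. Reads were handled with FastQC, Trim Galore, STAR, RSEM and DESeq2 on GRCm38, per the submitters' processing notes; the sources used here do not state strand setting or versions. The deposited table holds a signal per gene, counts divided by 1 size factor per library by the authors. Whole reads were recovered from it: 100% of values were whole multiples of 1 read within 0.01. GENCODE M21 matched 46574 IDs (98.9%).

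Differences were tested with limma 3.58.1 (R 4.3.3) on log2(value + 1) over genes that reached 10 in 2 or more of the fitted libraries. The 11 livers made 1 fit and the 11 libraries of 9 months another, and p-values were adjusted by Benjamini-Hochberg over all genes of the fit with a threshold of 0.05. A fold is 2 to the power of the log2 difference on that scale, so it understates changes of low genes. A fold is not given where a group held at most 3 reads or where a gene passed the filter in 1 tissue only. edgeR 4.0.16 and DESeq2 1.42.0 on the recovered reads, other pseudocounts, filters and scalings, a term for sex read from Y-linked signal, and leaving out libraries were the alternatives. The procedure was tested on simulated data. Named with values were the members past the threshold (all where at most 12 passed in a direction, otherwise the 8 with the largest change, others by fold) and the 3 members of each family with the highest mean. The members and lists were chosen with earlier results of these data known, and TGANNNNGC was added as a motif after the windows were seen. Promoter windows are from RefSeq, GRCm38.p6. Tumour and liver of 1 animal could not be paired. Some genes of the pathway lists are not reported here.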

Additional observations from a re-analysis of the deposited data

Results flagged for a closer look

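The effect of diet on Ugt1a9 differed between the ages: the difference at 9 months less that at 5 months was 3.0 log2 units (limma adjusted p 0.022), with fructose livers below cornstarch at 5 months and above it at 9 months. Taken alone, its diet difference passed at 5 months and not at 9 months. The call was lost in some alternatives, as given above, and the Ugt1a genes share their last exons. Alox5ap, a leukocyte gene of the microsomal glutathione transferase family, differed the other way, by -2.52 log2 units (adjusted p 0.022). The neutrophil markers, at 25144 and 22735 in the 5-month fructose livers against at most 301 in the other livers, moved with Alox5ap, and their part in its difference was not tested.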

How the results depend on the processing

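Over the 84 member values past the threshold, 1437 alternatives were computed: none reversed direction, 1214 kept their side of the threshold and 223 lost it. In 1 fit of all 16 libraries the members called were 8 for diet at 5 months (18 as reported), 8 for diet over both ages (18), 0 for diet by age (1), 2 for age under fructose (7) and 7 for tumour against liver under cornstarch (3). Of all genes, that fit called 11.8%, 17.4%, 0.647%, 2.71% and 9.87% in these comparisons, in that order. DESeq2 called 2 for diet at 9 months (0), 3 for age under cornstarch (0), 5 for diet by age, 14 for age under fructose, 2 for diet in tumours (0) and 10 for tumour against liver under cornstarch, and edgeR called 1 for diet at 9 months. Of all genes, DESeq2 called 7.05%, 1.34%, 2.23%, 6.77%, 0.874% and 11.7% there, in that order, and edgeR 2.7%. Quantile normalisation gave 11 for age under fructose, beside 4.34% of all genes, and 1 for tumour against liver under cornstarch, beside 4.96%. For diet by age, a pseudocount of 5 gave 2, beside 1.22% of all genes, and a term for sex 2, beside 0.468%. Leaving out 1 library at a time gave 1 to 23 for diet at 5 months, 7 to 24 over both ages, 0 to 4 for diet by age, 0 to 9 for age under fructose, 8 to 16 for tumour against liver under fructose, 0 to 4 under cornstarch and 13 to 26 over both diets; the lowest values at 5 months, over both ages and for age under fructose all came when the second fructose liver of 5 months was left out, and the cause was not tested. Gsta4 in diet at 5 months, and Gstk1 and Gstp2 in tumours over both diets, stayed past the threshold in every alternative run. No paired analysis was possible because it is not stated which tumour and which liver came from the same animal. Sult2a3 held 31 and 7 reads in the 2 libraries with almost no Y-linked signal and 1 read in the other 14, and it passed the level filter only through those 2.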
